A study of Mus musculus with 24 samples.

Results

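The embryonic sarcomere isoforms are 5 genes, Actc1, Myh3, Myh8, Myl4 and Tnnt2, which were selected by symbol from the 55401 genes of the count table as isoforms of developing muscle. Skeletal muscle RNA was sequenced from male C57BL6 mice that were 5 weeks old (young) or 11 weeks old (adult) at the procedure. Each age had a burn group, which received a scald over 25% of the body surface, and a sham group, which received the same anesthesia and analgesia with neither the injury nor the resuscitation fluid that burned mice were given, so that burn and fluid cannot be told apart. The gastrocnemius was collected at 24 h from 3 mice per group, each mouse giving 1 library. The 12 libraries of the 4 groups (adult sham, adult burn, young sham, young burn) held between 4392605 and 5688512 counts each.

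The sarcomere is built from thin filaments of actin and thick filaments of myosin, and muscle holds several genes for most of its parts. Developing skeletal muscle uses isoforms that the adult fibre largely gives up: cardiac alpha-actin (Actc1) precedes skeletal alpha-actin (Acta1), and the embryonic (Myh3) and perinatal (Myh8) myosin heavy chains precede the fast adult chains. The embryonic essential light chain (Myl4) and cardiac troponin T (Tnnt2) are also made in the fetal fibre. Actc1 and Tnnt2 stay on in the heart and Myl4 in its atria, and regenerating fibres of adult muscle switch several of the genes on again.

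The muscle identity of the samples was checked first. A list of 11 heart muscle markers, Nppa, Myh6, Tnni3 and Nkx2-5 among them, summed to between 9 and 25 counts per library, 2 of the 11 were at 0 in every library and none exceeded 12 counts in any library. Skeletal muscle fibre markers such as Ckm and Acta1 summed to between 96194 and 196072 CPM, which are counts scaled to a common library size after normalization. The study's RNA quality report gave no RNA integrity number for any sample. In that report the highest ratios of large to small ribosomal RNA came from adult sham samples. The part of RNA quality in the group differences was not tested. Young burn replicate 2 stood apart from its group: its deviation from the group mean, averaged over genes, was 0.323 on the log2 scale against 0.151 to 0.223 in the other 11 libraries. Most results are therefore given with all 12 libraries and, beside them, with the 11 that remain without it.

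The promoters of the members that the age comparisons turn on are shown with that of Myl4, which no age comparison called. Each is the 250 bases before the transcription start in RefSeq on GRCm38.p6, written 5′ to 3′ on the strand of the gene. The Actc1 stretch is 2:114052876-114053125 on the minus strand, the Tnnt2 stretch (the first of 2 starts) is 1:135836084-135836333, the Myh8 stretch is 11:67276874-67277123 and the Myl4 stretch is 11:104550413-104550662, these 3 on the plus strand. Capitals mark the CArG box of Actc1, the E-boxes of Tnnt2 and the MEF2 site of Myh8.
Actc1: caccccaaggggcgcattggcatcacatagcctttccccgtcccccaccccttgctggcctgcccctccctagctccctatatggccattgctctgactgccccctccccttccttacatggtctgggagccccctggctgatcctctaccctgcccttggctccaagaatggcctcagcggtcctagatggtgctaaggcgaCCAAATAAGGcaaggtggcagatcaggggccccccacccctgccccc
Tnnt2: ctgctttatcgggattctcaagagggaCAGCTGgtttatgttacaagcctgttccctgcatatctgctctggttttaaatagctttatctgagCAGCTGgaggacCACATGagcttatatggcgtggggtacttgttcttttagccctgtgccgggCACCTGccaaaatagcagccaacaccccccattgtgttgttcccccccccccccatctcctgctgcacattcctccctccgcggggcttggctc
Myh8: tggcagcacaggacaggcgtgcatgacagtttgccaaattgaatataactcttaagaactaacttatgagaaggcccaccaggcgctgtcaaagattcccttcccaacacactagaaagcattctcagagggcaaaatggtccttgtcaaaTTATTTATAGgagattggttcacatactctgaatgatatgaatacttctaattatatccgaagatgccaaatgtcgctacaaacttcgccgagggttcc
Myl4: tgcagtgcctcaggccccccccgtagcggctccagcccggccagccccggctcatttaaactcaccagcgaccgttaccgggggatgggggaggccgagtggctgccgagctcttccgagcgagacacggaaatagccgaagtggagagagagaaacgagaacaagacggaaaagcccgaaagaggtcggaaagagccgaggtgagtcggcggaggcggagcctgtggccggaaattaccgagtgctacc
The windows searched were 300 bases long, from 250 before to 50 after the start, and both strands were read. The CArG box, the motif of serum response factor, lay at bases -47 to -38 of Actc1, in none of the other members' windows and in 1.63% of the 32851 promoters of the same length. The MEF2 site lay at bases -99 to -90 of Myh8, overlapped the letters TATAAA there and was found in 3.19% of all promoters. E-boxes, the letters CANNTG that muscle regulatory factors such as myogenin can bind, were found 5 times in this Tnnt2 window, 4 of them in the stretch printed, 2 times in the window of its other start, 2 times in that of Myh8 and 1 time each in those of Actc1 and Myh3; they are in capitals for Tnnt2 alone. At least 1 E-box was present in 72.3% of all promoters. The letters TATAAA were present in the windows of Actc1, Myh3 and Myh8 and in 13.6% of all promoters. They lay at bases 34 to 39 after the start in Actc1, at -29 to -24 in Myh3 and at -96 to -91 in Myh8. The Myl4 window held none of the 4 motifs. A match is a sequence description and no measurement of binding.

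All 5 members passed the filter on low counts, but at very different depths. Actc1, on chromosome 2 (114047282 to 114053548, minus strand, GRCm38), had between 540 and 19007 counts per library. The other 4 were near the low end of what was tested. Myh3 (chromosome 11, 67078300 to 67102291) had 8 to 52 counts, Myh8 (chromosome 11, 67277124 to 67308634) 5 to 25, Myl4 (chromosome 11, 104550663 to 104595753) 48 to 85 and Tnnt2 (chromosome 1, 135836354 to 135852260) 8 to 38, all 4 genes being on the plus strand. Counting alone moves values at this depth. The 25 Myh8 counts of the adult burn group have an exact 95% Poisson interval of 16.2 to 36.9, which covers counting error only. Of all 75-base stretches of the Myh8 transcript, 12.9% also occur in other myosin heavy chain genes (Myh1, Myh2, Myh3, Myh4 and Myh13), against 1.86% for Myh3 and none for Actc1, Myl4 and Tnnt2. Myh8 counts therefore depend most on how reads from shared stretches were handled. Antisense genes overlap Actc1 and Myl4. The one over Actc1 (A530058N18Rik) had 6 counts over all 12 libraries, and the highest over Myl4 had 30.

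Per kilobase of exon, the mean levels stood in the order Actc1, Myl4, Myh3, Tnnt2 and Myh8 in all 4 groups. In young sham muscle, Actc1 stood at 1774 ± 698 CPM per kb (SD, n = 3), far above Myl4 at 3.28 ± 0.749, Myh3 at 1.14 ± 0.580, Tnnt2 at 0.620 ± 0.308 and Myh8 at 0.277 ± 0.0634. In adult sham muscle, Actc1 was at 119.9 ± 59.4 CPM per kb, Myl4 at 3.50 ± 0.345, Myh3 at 0.757 ± 0.358, Tnnt2 at 0.333 ± 0.0725 and Myh8 at 0.200 ± 0.0311. The values of Myh3 and Tnnt2 overlapped in both sham groups, so the order of these neighbours did not exceed their spread. The lengths are the union of all annotated exons, which for Myh8 (11772 bases), Tnnt2 (7752) and Myl4 (4637) is well above the length of the transcript used for the search of shared stretches (6149, 1200 and 943 bases), so that their levels per kb are lower than they would be per transcript. The order depends on this choice: per kb of transcript, Tnnt2 stood above Myh3 in young sham muscle, at 4.00 ± 1.99 against 1.146 ± 0.583 CPM per kb, and in the other 3 groups as well, while Actc1 and Myl4 stayed first and second.

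**Figure D1:**
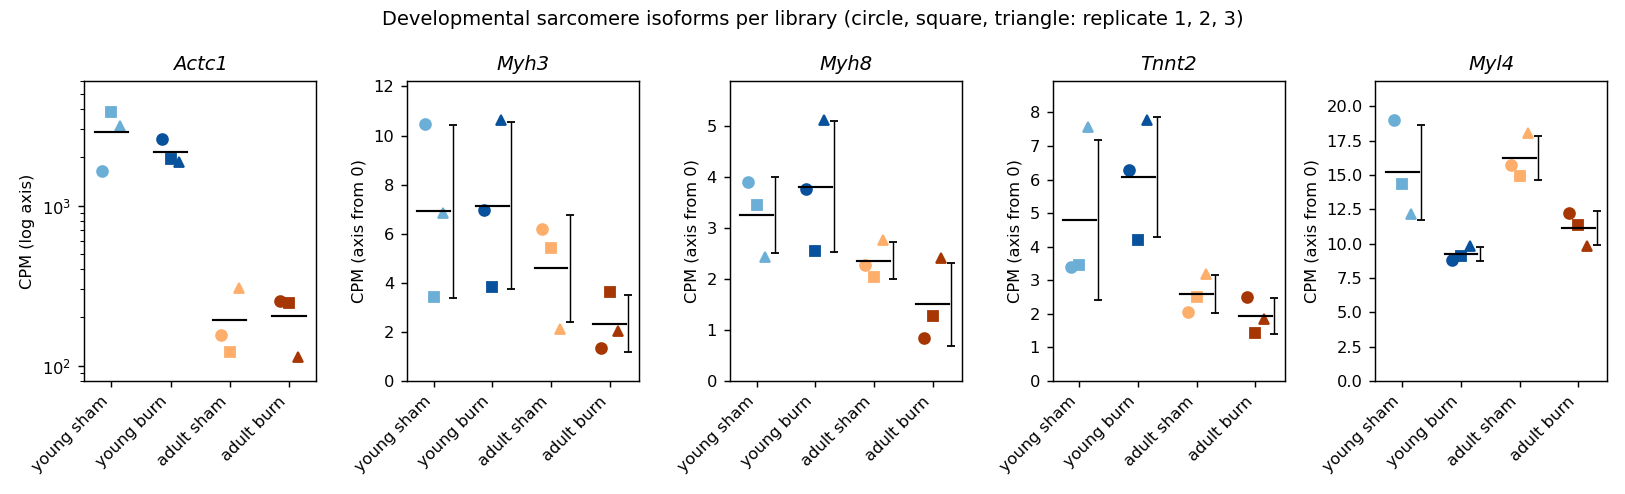
CPM of the 5 members in each library of the 4 groups (n = 3 each; the Actc1 axis is logarithmic and the other axes start at 0); lines mark group means and bars the SD, which is not drawn for Actc1. All 6 young libraries lie above all 6 adult libraries for Actc1 and Tnnt2, and all burn libraries lie below the sham libraries of their age for Myl4.

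The comparison of young sham with adult sham mice asks how the isoforms differ with age in uninjured muscle. Actc1 was the member that rose: it was 14.8-fold higher in young sham than in adult sham muscle, with a 95% interval of 7.92 to 27.6. Cardiac alpha-actin forms the thin filament of fetal skeletal muscle and of the adult heart. In young sham libraries Actc1 was at 1635, 3849 and 3127 CPM, and in adult sham libraries at 156, 122 and 303 CPM. The lowest young value was over 5 times the highest adult value, so the groups were far apart. The log2 fold change was 3.89 ± 0.42 (SE; adjusted p = 0.000576, edgeR's quasi-likelihood test with Benjamini-Hochberg adjustment over 12408 genes) and 3.88 without young burn replicate 2 (adjusted p = 5.17e-05).

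The other 4 members did not pass the test between the sham groups. Tnnt2, the troponin T that ties the troponin complex to tropomyosin in heart and fetal muscle, was at 3.41, 3.44 and 7.56 CPM (14, 17 and 31 counts) in young sham and at 2.07, 2.49 and 3.18 CPM (10, 11 and 15 counts) in adult sham libraries. The groups did not overlap, though only narrowly, and the log2 fold change was 0.88 ± 0.39 (adjusted p = 0.220). Myh3, the heavy chain of the first fibres to form, was at 10.5, 3.44 and 6.83 CPM in young sham and at 6.20, 5.44 and 2.12 CPM in adult sham, with 2 of the adult values inside the young range. Myh8, the heavy chain of late fetal and newborn muscle, was at 3.90, 3.44 and 2.44 CPM against 2.27, 2.04 and 2.76, again overlapping. Their log2 fold changes were 0.57 ± 0.49 and 0.46 ± 0.39. Myl4, the essential light chain of embryonic muscle and of the atria, was at 19.0, 14.4 and 12.2 CPM against 15.7, 14.96 and 18.0, a log2 fold change of -0.10 with a 95% interval of -0.48 to 0.28.

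Against the background, 1 of the 5 members was called higher in young sham muscle, where 1.92% of all genes were. With 11 libraries it was again 1 of 5, against 5.27%. The sham groups did not overlap for Actc1 and Tnnt2, 2 of 5, against 15.7% of genes with all young values above all adult values. The members' median log2 fold change was 0.57, and that of all genes tested was 0.01.

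The comparison of young burn with adult burn mice asks the same of injured muscle, and 3 members passed the test there. Actc1, Tnnt2 and Myh8 rose in young burn relative to adult burn, by 10.5-fold (5.71 to 19.4), 3.08-fold (1.77 to 5.35) and 2.52-fold (1.42 to 4.47). Actc1 was at 2613, 1954 and 1879 CPM in young burn and 253, 247 and 113 CPM in adult burn libraries. Tnnt2 was at 6.27, 4.20 and 7.77 CPM (35, 23 and 38 counts) in young burn and 2.52, 1.45 and 1.86 CPM (15, 8 and 10 counts) in adult burn. Neither gene had overlapping ages. The log2 fold changes were 3.39 ± 0.41 for Actc1 (adjusted p = 0.000771) and 1.62 ± 0.37 for Tnnt2 (adjusted p = 0.0168).

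For both developmental heavy chains the call depended on the libraries and the tool. Myh8 was at 3.76, 2.56 and 5.11 CPM (21, 14 and 25 counts) in young burn and at 0.838, 1.27 and 2.41 CPM (5, 7 and 13 counts) in adult burn. The lowest young burn value, 2.56 CPM (14 counts), was barely above the highest adult burn value, 2.41 CPM (13 counts). Its log2 fold change was 1.33 ± 0.39 (adjusted p = 0.0417) with 12 libraries and 1.56 (adjusted p = 0.0127) with 11. Under DESeq2 the adjusted p was 0.0587. Myh3 was at 6.99, 3.83 and 10.6 CPM (39, 21 and 52 counts) in young burn and at 1.34, 3.61 and 2.04 CPM (8, 20 and 11 counts) in adult burn. It did not pass with 12 libraries (log2 fold change 1.60 ± 0.51, adjusted p = 0.0611), and it passed with 11 (1.91, adjusted p = 0.0123) and under DESeq2 (1.61, adjusted p = 0.0321). The lowest young burn value of Myh3, Myh8 and Tnnt2 came in each case from young burn replicate 2. With 1 of the 12 libraries left out, the Actc1 call held in 12 fits, the Tnnt2 call in 9 and the Myh8 call in at least 3. Tnnt2 lost its call without adult burn replicate 2 or 3 or young burn replicate 3, with adjusted p up to 0.0702. Myh8 kept its call without adult burn replicate 3, adult sham replicate 3 or young burn replicate 2, and otherwise had adjusted p up to 0.145. Without adult burn replicate 2 or young burn replicate 3, Actc1 was the sole member called.

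Myl4 did not pass the test between the burn groups. It was at 8.78, 9.13 and 9.81 CPM in young burn and at 12.2, 11.4 and 9.84 CPM in adult burn muscle, and its log2 fold change was -0.27 ± 0.19 (adjusted p = 0.352). In the background of this comparison, 3 of 5 members were called higher in young burn muscle against 5.98% of all genes, and 4 of 5 against 11.2% with 11 libraries. All young burn values lay above all adult burn values for 4 of the 5 members, Myl4 being the exception, against 15.7% of genes. The separation was narrow for Myh3, at 3.83 against 3.61 CPM, and for Myh8. Actc1 and Tnnt2 were free of overlap in both age comparisons, 2 of 5 members against 6.25% of genes. The members' median log2 fold change was 1.60 against 0.02 over all genes.

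A contrast of age averaged over sham and burn was added after the values had been seen. In it Actc1 (log2 fold change 3.64 ± 0.29, adjusted p = 1.31e-05), Tnnt2 (1.25 ± 0.27, adjusted p = 0.00628), Myh8 (0.90 ± 0.27, adjusted p = 0.0336) and Myh3 (1.09 ± 0.36, adjusted p = 0.0459) rose in young muscle. That is 4 of 5 members against 10.9% of all genes, and again 4 of 5 against 16% with 11 libraries. DESeq2 called 3 of them, with an adjusted p of 0.0593 for Myh8. Actc1 and Tnnt2 passed with any 1 of the 12 libraries left out. Myh3 and Myh8 each passed in 4 of the 12 such fits, with adjusted p up to 0.118 and 0.0820.

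**Figure D2:**
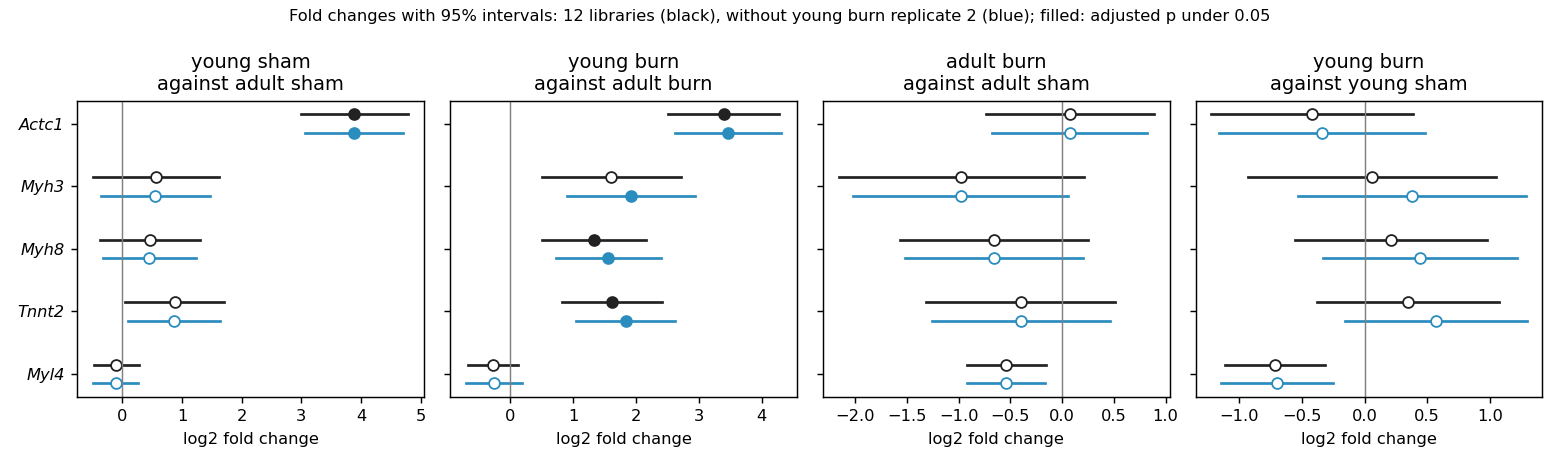
log2 fold changes of the 5 members in 4 comparisons with 95% intervals, from all 12 libraries (black) and from 11 (blue); filled points passed an adjusted p of 0.05. With 12 libraries, Actc1 stands between 3.39 and 3.89 in both age comparisons. Myh3, Myh8 and Tnnt2 then stand between 0.46 and 0.88 in sham and between 1.33 and 1.62 in burn muscle, a difference that passed for none of them. In the age comparison of burn muscle, the median of the 5 members is 1.60 with 12 libraries and 1.83 with 11. Myl4 lies below 0 in both burn comparisons.

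The burn comparisons ask what the injury changed within each age, and no member passed the test in either. For Actc1 the log2 fold change was 0.07 in adult mice (95% interval -0.74 to 0.89) and -0.42 in young mice (-1.22 to 0.38). Myh3 and Myh8 were lower in adult burn than in adult sham by point estimate, with log2 fold changes of -0.98 (-2.16 to 0.21) and -0.66 (-1.56 to 0.25). In young mice their log2 fold changes were 0.06 (-0.93 to 1.05) and 0.21 (-0.55 to 0.97). Tnnt2 had -0.40 in adult and 0.35 in young mice, with intervals that held 0. The intervals are wide: that of Myh3 in young mice ran from 0.525-fold to 2.06-fold. These values are from 12 libraries. In young mice the members' median log2 fold change was 0.06 with 12 libraries and 0.38 with 11. In adult mice it was -0.54 with either.

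Myl4 was the member with the smallest adjusted p in both burn comparisons. Adult sham libraries had 15.7, 14.96 and 18.0 CPM (76, 66 and 85 counts) and adult burn libraries 12.2, 11.4 and 9.84 CPM (73, 63 and 53 counts). Young sham libraries had 19.0, 14.4 and 12.2 CPM (78, 71 and 50 counts) and young burn libraries 8.78, 9.13 and 9.81 CPM (49, 50 and 48 counts). No burn value reached the sham values of its age. The log2 fold change was -0.54 ± 0.18 in adult mice (adjusted p = 0.603 by edgeR) and -0.72 ± 0.18 in young mice (adjusted p = 0.0841 by edgeR), so neither passed.

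In the background of these comparisons, 0 of 5 members were called in adult mice (0.00806% of genes in either direction, and 0.909% with 11 libraries) and 0 of 5 in young mice (0.0645%, and 0.664% with 11). The edgeR calls were few at this threshold although 853 genes in adult and 2519 in young mice had an unadjusted p under 0.05. DESeq2 called 7 and 443 genes, and no member in either. Burn values lay wholly below sham values for 1 of 5 members in adult mice, against 9.74% of genes, for 1 of 5 in young mice, against 11.2%, and for 1 of 5 in both, against 1.97%. The test of whether the burn response differed between the ages called no member and no gene (0%) with 12 libraries, where 893 genes had an unadjusted p under 0.05 and DESeq2 called 1, and no member with 11, where 0.0949% of genes were called. The differences in burn response were largest for Myh3, at 1.04 ± 0.72 on the log2 scale with 12 libraries and 1.36 with 11 (adjusted p = 0.767 and 0.452).

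Averaged over both ages, a contrast also added after the values had been seen, Myl4 was 1.54-fold lower after burn (log2 fold change -0.63 ± 0.13, adjusted p = 0.0453) and 1.54-fold lower with 11 libraries (-0.62, adjusted p = 0.0264). It was the sole member called, 1 of 5, where 0.282% of all genes were called lower in burn with 12 libraries and 1.02% with 11. The call is close to the threshold. It was lost when any library other than young burn replicate 1 or 2 was left out, with adjusted p up to 0.134 and log2 fold changes that stayed between -0.69 and -0.53, and it was lost when library size alone was used for scaling (-0.52, adjusted p = 0.0874).

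The share of each developmental isoform within its protein family gives a measure that does not depend on scaling between libraries. Shares were taken from CPM per kb of exon. Actc1 made up 4.20%, 10.8% and 7.12% of sarcomeric alpha-actin mRNA (Actc1 and Acta1) in young sham and 7.94%, 7.41% and 5.76% in young burn libraries. In adult muscle the share was 0.597%, 0.499% and 0.960% in sham and 0.946%, 0.834% and 0.373% in burn libraries. All 6 young libraries exceeded all 6 adult ones by over 3 percentage points, and the means differed by 6.50 percentage points (exact permutation test, two-sided, n = 6 and 6, p = 0.00216, the smallest this test can give; adjusted p = 0.0173 over 8 tests). Acta1 itself, the adult actin, had 34818 ± 4251 CPM in young sham and 25861 ± 3416 CPM in adult sham muscle and did not pass the test (log2 fold change 0.43, adjusted p = 0.184 by edgeR).

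The other 3 shares were minute, but their size depends on the length used. The union of all exons is well above the transcript length for Myh8, Tnnt2 and Myl4. Without division by length, the young minus adult difference was 0.0143 percentage points for troponin T and -0.0405 for the essential light chains. The values that follow are per kb of exon. Myh3 and Myh8 together made up between 0.0165% and 0.0542% of myosin heavy chain mRNA in the 6 young libraries and between 0.00750% and 0.0253% in the 6 adult ones, over the 6 genes Myh1, Myh2, Myh3, Myh4, Myh7 and Myh8. The ranges overlapped, and the means differed by 0.0162 percentage points (exact permutation p = 0.0238, adjusted p = 0.0476). Tnnt2 made up between 0.00258% and 0.00771% of troponin T mRNA in young and between 0.00105% and 0.00275% in adult muscle (exact permutation p = 0.00433, adjusted p = 0.0173). With 1 library left out, the heavy chain difference lost its call in 9 of 12 cases, with adjusted p up to 0.113, and held without adult sham replicate 1 and young sham replicates 2 and 3. The troponin T difference lost its call in 2 cases, without adult burn replicate 1 or adult sham replicate 2, with an adjusted p of 0.0519 in both.

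The Myl4 share was lower in young than in adult muscle. It made up 0.0185% to 0.0392% of essential light chain mRNA (Myl1, Myl3 and Myl4) in young and 0.0317% to 0.0582% in adult muscle, a difference of -0.0181 percentage points (exact permutation p = 0.0130, adjusted p = 0.0346). The Myl4 level itself did not pass the test in either age comparison, and Myl1, the fast-fibre light chain in the denominator, rose in young sham muscle (log2 fold change 0.91, adjusted p = 0.0250 by edgeR). The call on the Myl4 share was lost without adult burn replicate 1, adult sham replicate 2 or 3, or any of the 3 young burn libraries. The adjusted p of the permutation test was then up to 0.0693. Between burn and sham, compared within age, none of the 4 shares passed the exact permutation test: adjusted p was 0.940 for actin, 0.880 for the heavy chains, 0.353 for troponin T and 0.136 for the essential light chains.

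**Figure D3:**
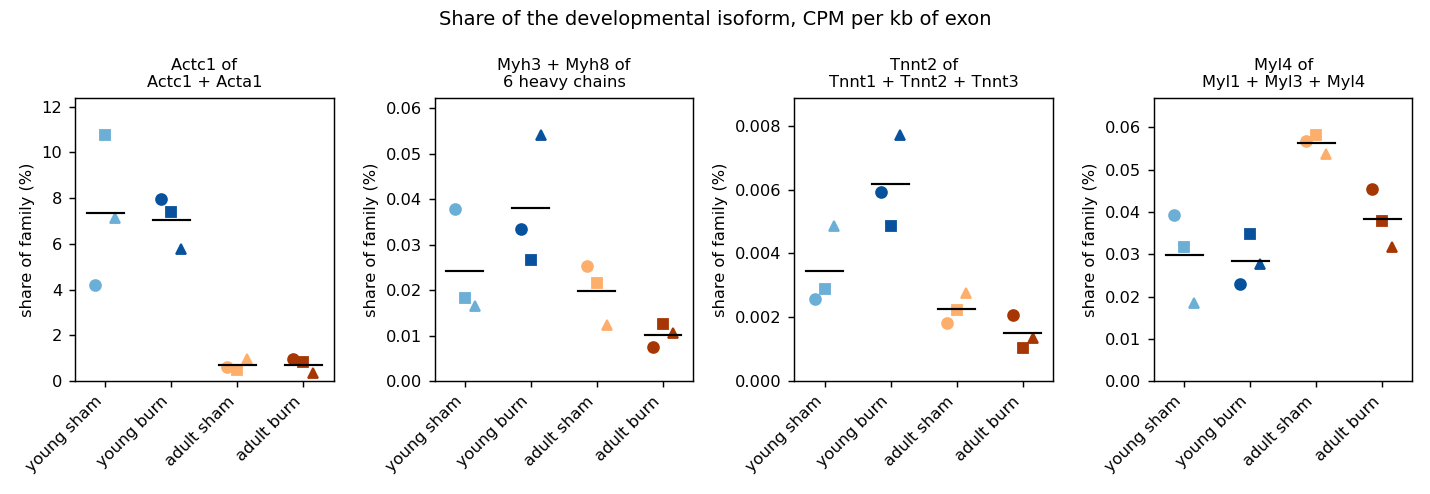
Share of the developmental isoform in its family, in percent of CPM per kb of exon, for each library (axes start at 0; lines are group means, n = 3). Actc1 reaches 4.20% to 10.8% of alpha-actin in young muscle and stays under 1% in adult muscle. With lengths taken as the union of all exons, the other 3 shares stay under 0.06% everywhere.

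The adult counterparts of these isoforms, 11 genes, were tested from the same fit. In sham muscle 2 of 11 rose in young mice, the fast light chains Mylpf (log2 fold change 1.24, adjusted p = 0.00583) and Myl1, and none fell, where 1.92% of all genes were called higher and 1.85% lower. The list's median was 0.26 against 0.01 over all genes. In burn muscle 2 of 11 rose in young mice, the fast heavy chains Myh1 (0.95, adjusted p = 0.0135) and Myh2 (1.17, adjusted p = 0.0397), against 5.98% of all genes, with a list median of 0.47 against 0.02. Without young burn replicate 2, these counts became 2 higher and 1 lower in sham (5.27% and 6.49% of all genes) and 6 higher in burn muscle (11.2%). Burn against sham called none of the 11 with 12 libraries and, with 11 libraries, 4 lower in adult burn, Myh1, Myh2, Myl2 and Myl3, where 0.348% of all genes were. The slow fibre markers, which share Myh7, Myl2, Myl3 and Tnnt1 with this list, summed to 645 to 759 CPM in adult burn, 729 to 1848 in adult sham, 490 to 1566 in young burn and 990 to 1654 in young sham libraries. In whole muscle a change in the number of fibres of a type and a change in RNA per fibre cannot be told apart.

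Among 13 genes of immature or newly fusing fibres, 10 were tested, and the muscle regulatory factor myogenin (Myog) rose in young muscle in both age comparisons. Myog had 52, 103 and 101 counts in young sham against 29, 25 and 29 in adult sham, and 247, 175 and 167 in young burn against 50, 22 and 19 in adult burn. Its log2 fold change was 1.70 ± 0.31 in sham (adjusted p = 0.0112) and 2.78 ± 0.29 in burn (adjusted p = 0.000381). The fusion protein myomaker (Mymk) had 16, 8 and 20 counts in young sham and 35, 12 and 20 in young burn. Both adult groups held 2 Mymk counts over 3 libraries, so that Mymk passed the filter through the young libraries alone and is given as a description. The ratio of young to adult was 23.4 in sham (exact 95% counting interval 6.10 to 199) and 35.5 in burn (9.44 to 299). Myod1, the regulatory factor of early commitment, fell in young sham relative to adult sham (log2 fold change -1.05, adjusted p = 0.0437) and had -0.51 in burn (adjusted p = 0.195). In all, 2 of the 10 were called higher and 1 lower in sham, and 2 higher in burn, Mymk being 1 of the 2 in both, with list medians of 0.60 and 0.36. The shares of all genes were 1.92% higher and 1.85% lower in sham and 5.98% higher in burn. With 11 libraries the counts were 4 higher and 1 lower in sham (5.27% and 6.49% of all genes) and 5 higher and 1 lower in burn (11.2% and 9.54%). Satellite cell markers, 6 genes with Pax7 and Myf5 among them, summed to 71.5 to 92.2 CPM in adult and 86.4 to 109 CPM in young libraries. Of the 6, 1 was called higher in young muscle in each age comparison, Calcr, at a log2 fold change of 1.46 in sham muscle (adjusted p = 0.0199). The part of these cells in the age differences was not tested.

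Most of the sarcomere assembly genes called were lower in young muscle. Of 17 tested, 1 rose and 2 fell in young sham relative to adult sham, with a list median of -0.22. Of all genes, 1.92% were called higher and 1.85% lower there. Mybph, a myosin-binding protein, rose (log2 fold change 2.03 ± 0.40, adjusted p = 0.0158), while the stretch-responsive Z-disc and titin partner Ankrd2 (-1.69, adjusted p = 0.0267) and filamin C (Flnc, -0.72, adjusted p = 0.0448) fell. In burn muscle 4 of 17 fell and none rose, where 4.84% of all genes were called lower and 5.98% higher, with a list median of -0.49. The 4 were Ankrd1 (-2.05, adjusted p = 0.0135), the thin filament cap Tmod1 (-0.94, adjusted p = 0.00637), Flnc (-0.74, adjusted p = 0.0228) and desmin (Des, -0.52, adjusted p = 0.0316). With 11 libraries 1 rose and 5 fell in sham (5.27% of all genes higher and 6.49% lower). In burn 3 rose and 7 fell (11.2% of all genes higher and 9.54% lower).

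Of 12 tested regulators of sarcomere genes, Srf, the factor that binds CArG boxes, fell in young muscle in both age comparisons and was the sole one called (1.85% of all genes were called lower in sham and 4.84% in burn). Its log2 fold change was -0.69 ± 0.12 in sham (adjusted p = 0.00814) and -0.73 ± 0.12 in burn (adjusted p = 0.00286). Actc1, whose promoter window holds a CArG box, stood higher in the same young libraries. A link between Srf and Actc1 was not tested. Srf was at 46.6 ± 4.98 CPM in young sham, 47.0 ± 1.32 in young burn, 75.2 ± 6.93 in adult sham and 77.9 ± 3.59 in adult burn muscle (SD, n = 3). The list's median was -0.18 in sham and -0.27 in burn. With 11 libraries the calls were 2 lower in sham muscle (6.49% of all genes). In burn muscle they were 2 higher and 3 lower (11.2% and 9.54% of all genes).

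**Figure D4:**
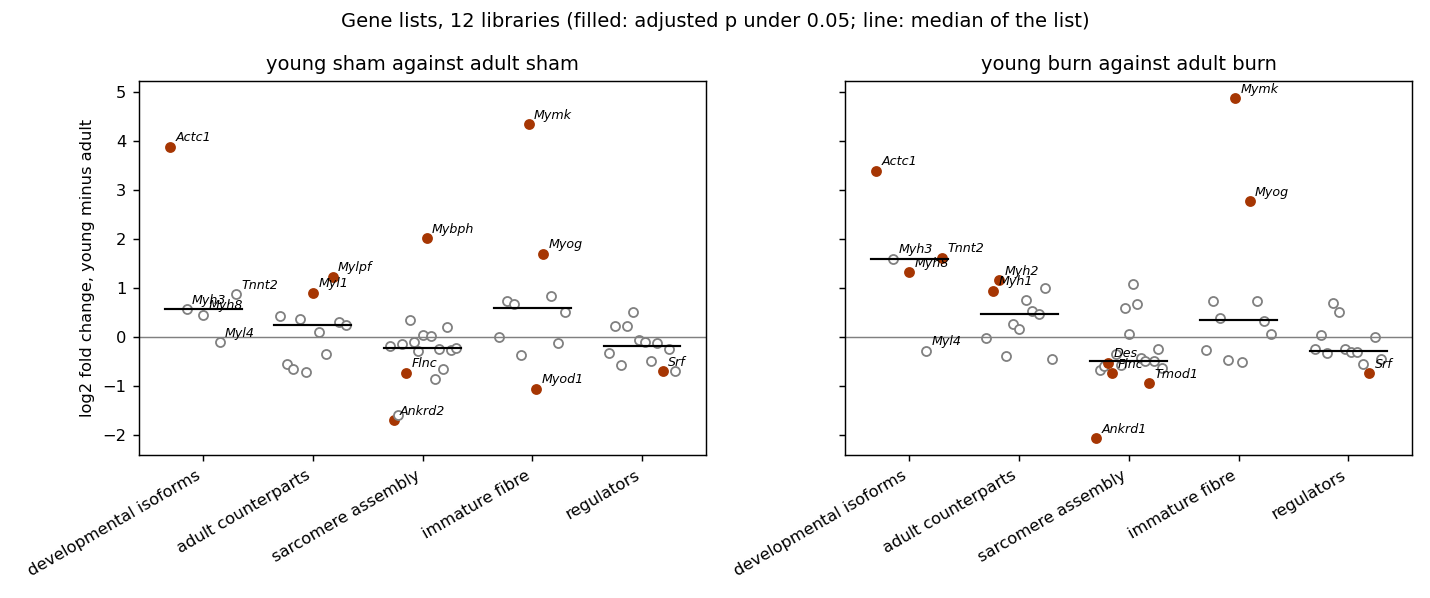
log2 fold change of young against adult for the 5 developmental isoforms and 4 related lists, in sham (left) and burn muscle (right), from 12 libraries; filled points passed an adjusted p of 0.05 and lines are list medians. Actc1 and Mymk, the latter with 2 counts in each adult group, stand highest in both panels, and Srf stands below 0 in both.

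Across the 12 libraries the members followed each other unevenly. The correlation of log2 CPM was highest for Actc1 and Tnnt2 (Pearson r = 0.805), followed by Myh3 and Myh8 (0.676), and Myl4 had values between -0.305 and 0.0347 with the other 4. After the group means were removed, the correlation of Actc1 and Tnnt2 was 0.283 and that of Actc1 and Myh3 was -0.539. These 12 points share 4 group means, and the counts behind 4 of the genes are low. Among the genes whose log2 CPM was most like each member's were Hoxd3os1, Arfip2 and Mdk for Actc1 (Pearson r 0.969 to 0.977), Sh3bgrl, Hdac7 and Brf1 for Tnnt2 (0.948 to 0.952), Myzap and Tnfsf12 for Myh3 (0.885 to 0.927), Tns3, Rgs4 and Igsf3 for Myh8 (0.877 to 0.898), and Ston2, Mpzl3 and Fam57b for Myl4 (0.879 to 0.889), each over 12 libraries and as a description.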

How the data were processed

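Polyadenylated RNA of gastrocnemius from 12 mice was sequenced as paired 75-base reads. The authors aligned reads with STAR to GRCm38 with Gencode M25 and deposited whole-number counts per gene; the submitters' processing notes list STAR 2.7.5c, bcl2fastq 2.20 and featureCounts 2.0.1, and no source used here states which strand was counted. The microRNA table was not used here.

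The deposited counts were tested with edgeR 4.0.16 in R 4.3.3: filterByExpr (minimum count 10, minimum total 15), TMM scaling, 4 group means, glmQLFit and glmQLFTest, with Benjamini-Hochberg adjustment over the 12408 genes kept (12651 with 11 libraries) and a threshold of 0.05. CPM used TMM-scaled library sizes over the genes kept. Standard errors and 95% intervals came from the same fit. Exonic lengths and positions were taken from Gencode vM21 on GRCm38, promoters from RefSeq, where all 5 genes were found. DESeq2 1.42.0, other scalings, no filter, a replicate block, the compared groups alone and each library left out were alternatives. The steps were tested on simulated counts: of 200 genes changed by 2 on the log2 scale between young burn and adult burn, 198 of 200 were called, with 14 false calls among 12258 genes. The changed genes were drawn from those with a mean level above the median. The simulation therefore does not show how often smaller changes, or changes at low counts, are called.

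The members and gene lists were chosen with earlier results of these data known. Genes were named by rule: the 5 members, their adult counterparts, the called list genes of largest change in the age comparisons (up to 4 per list) and the 3 genes most like each member, of which 1 is not reported here. The labels give 1 mouse per library, so p-values measure spread between mice; no 2 libraries of a group agreed within sampling noise (chi-square per degree of freedom 3.37 to 37.8). Same-numbered replicates did not deviate together (median correlation of 18 pairs 0.0151, range -0.197 to 0.153).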

Additional observations from a re-analysis of the deposited data

How the results depend on the processing

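Each group held 3 mice (2 in young burn with 11 libraries), averaged contrasts and shares set 6 against 6, and counts under 60 per library limit Myh3, Myh8 and Tnnt2. Of 5 members, 3 were called between young burn and adult burn, and 1 to 4 were when 1 library was left out (1 without adult burn replicate 2 or young burn replicate 3, 4 without young burn replicate 2). Averaged over procedures 4 were called (2 to 4), and averaged over ages 1 was (0 to 1). Without the filter on low counts, Myl4 passed between young burn and young sham (1 member called, log2 fold change -0.71, adjusted p = 0.0417). Scaling by library size alone and the replicate block each left 0 members called for burn averaged over ages. Under the replicate block the Myl4 log2 fold change there was -0.63 (adjusted p = 0.0617) and Myh3 averaged over procedures had an adjusted p of 0.0682; the replicate numbers do not pair the mice. With 1 library left out, the young minus adult share differed by 5.78 to 7.10 percentage points for actin, 0.0116 to 0.0191 for the heavy chains, 0.00234 to 0.00337 for troponin T and -0.0212 to -0.0159 for the essential light chains. The burn minus sham essential light chain share ranged from -0.0124 to -0.00728 and passed without young sham replicate 3 (adjusted p = 0.0300). Counts not divided by length changed no call on a share but moved the young minus adult difference to 0.0143 percentage points for troponin T (from 0.00292) and -0.0405 for the essential light chains (from -0.0181). The number of all genes called moved by over 1.5 times in several fits. Young sham against adult sham gave 467 (no filter 1011, compared groups alone 1163, DESeq2 with 11 libraries 1161, 1 library left out 97 to 1488). Young burn against adult burn gave 1343 (compared groups alone 314, 1 library left out 390 to 2623). Adult burn against adult sham gave 1 (DESeq2 7, no filter 285, block 3, compared groups alone 115, DESeq2 with 11 libraries 211, 1 library left out up to 115). Young burn against young sham gave 8 (DESeq2 443, library size alone 615, no filter 1095, compared groups alone 1, DESeq2 with 11 libraries 191, 1 library left out 1 to 697). The interaction gave 0 (DESeq2 1, no filter 116, DESeq2 with 11 libraries 43, 1 library left out up to 12), age averaged over procedures gave 2513 (1 library left out 1723 to 4000), and burn averaged over ages gave 112 (DESeq2 424, no filter 1223, block 70, DESeq2 with 11 libraries 441, 1 library left out 2 to 649, the ends being without young sham replicate 2 and young burn replicate 1). The cause of these changes was not tested.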
